A study of Mus musculus with 12 samples.

Results

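Cytochrome P450 genes of families 1 to 3 were described here in mouse liver, apart from the Cyp2b genes, Cyp1a2, Cyp2e1 and Cyp2f2. Members were the gene probes named Cyp1, Cyp2 or Cyp3 followed by a letter and a number. The rule uses names alone, but it was set with earlier results of these data known. It gave 36 genes on 54 probes, of 28786 gene names on 41174 probes of the array. Of these, 34 genes on 45 probes were bright enough to be tested, and Cyp2c65 and Cyp2c66 were not. Further probes of Cyp1b1, Cyp2g1, Cyp2j11, Cyp2j13, Cyp2s1 and Cyp3a44 were also too dim, so these genes rest on their brighter probe. Knockout liver, Abcb4 (-/-), was set against wild-type liver, Abcb4 (+/+), with both RNAs on each array in different dyes. Abcb4 moves phospholipid into bile, and its loss in mice injures the bile ducts, which serves to model sclerosing cholangitis. Over 9 weeks the knockout mice were fed cholic acid (CA) or ursodeoxycholic acid (UDCA), which per the design text were meant to raise and to lower disease activity.

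Each diet group had 5 knockout livers, none pooled, on 6 arrays. Arrays 1 to 3 carried the knockout RNA in the red dye Cy5 and arrays 4 to 6 carried it in the green dye Cy3. In each diet, 1 of arrays 4 to 6 was a technical dye swap of a liver already used, and the labels do not say which. The p-values are therefore too small by an unknown amount. Each possible pair of array numbers was averaged in turn, with the same numbers taken in both diets. The counts of called members then ran from 17 to 19 lower with CA and 5 to 8 lower with UDCA. In the difference between the diets they ran from 12 to 17 lower and 0 to 2 higher. Pairs that differ between the diets were not tried, so these ranges do not cover every possible case. The labels give no dose, sex, strain or age, and no diet for the wild-type mice. All knockout mice received a bile acid, so a ratio to wild type holds the loss of Abcb4 and the diet together. RNA came from whole liver, and fewer cells of a type cannot be told apart from less RNA per cell.

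Enzymes of families 1 to 3 sit in the endoplasmic reticulum and oxidise drugs, pollutants, steroids, bile acids and fatty acids, using electrons from cytochrome P450 reductase and a heme group. Hepatocytes hold most of the liver's supply. The aryl hydrocarbon receptor (AhR) is known to induce family 1. The constitutive androstane receptor (CAR, Nr1i3) and the pregnane X receptor (PXR, Nr1i2), which senses bile acids among other ligands, are known to induce genes of the Cyp2b, Cyp2c and Cyp3a subfamilies. Many mouse genes of these subfamilies lie in clusters of close copies, so the probe sequence decides how well a signal can be given to 1 gene. Some 60-base probes of the Cyp2c cluster are printed as an example of such copies. On their brightest probes Cyp2c54 and Cyp2c38 had the largest falls with CA. Their neighbour Cyp2c40 had a smaller one, on a brightest probe saturated on all 12 arrays. Printed for Cyp2c38 and Cyp2c40 are their dimmer second probes, which read -2.06 and -1.42 (log2) with CA. All of these probes lie on mouse chromosome 19 in build mm7. Capitals mark a base that differs from the aligned base of the Cyp2c54 probe.
Cyp2c54, spanning chr19:39941403-39963984: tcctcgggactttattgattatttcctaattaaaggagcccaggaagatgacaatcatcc
Cyp2c38, spanning chr19:39298557-39329867: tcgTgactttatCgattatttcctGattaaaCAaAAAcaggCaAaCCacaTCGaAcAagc
Cyp2c40, spanning chr19:39680672-39696310: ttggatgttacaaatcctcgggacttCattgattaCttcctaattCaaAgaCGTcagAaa
Over 57 aligned bases the Cyp2c38 probe differed from the Cyp2c54 probe at 17, and over 46 aligned bases the Cyp2c40 probe differed from it at 8. Across all 136 compared pairs of probes from different member genes of a subfamily, 2 pairs shared an unbroken run of 20 or more bases and 1 pair had 40 or more identical bases. Cross-hybridisation between copies was not tested.

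The median green signal of an array lay between 250.18 and 1296.4 and the median red signal between 59.203 and 158.2. The share of spots well above background in a channel ran from 31.601% to 68.439%. Abcb4 itself served as a check of the labels. Its probe A_52_P223194 was lower in knockout RNA on all 12 arrays, with log2 ratios from -3.74 to -2.07 with CA and from -2.77 to -1.2 with UDCA. The Abcb4 probe A_51_P249118 gave ratios from -1.91 to 0.34 over the 12 arrays. Where either probe lies relative to the deletion is not known here. Both diets met on 2 of the 5 slides, on slide 3 as CA array 5 with UDCA arrays 1 and 2, and on slide 4 as CA array 6 with UDCA arrays 3 to 5.

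The most abundant P450 messages passed the range of the scanner. Of the 54 member probes, between 12 and 28 were saturated in green on an array, against 0 to 9 in red. Where wild-type RNA was the saturated green one (arrays 1 to 3), the ratio is an upper bound, and where knockout RNA was (arrays 4 to 6), it is a lower bound. The mark of this is a gap between dye orientations. For the 13 genes with no saturated spot on the CA arrays, the mean ratio on Cy5 arrays minus that on Cy3 arrays ran from -0.81 to 1.12 (median -0.15, log2). For the 10 genes saturated on all 6 CA arrays, the gap ran from 0.84 to 5 (median 3.38). With UDCA the same gap had a median of -0.21 in 15 unsaturated genes and of 3.09 in 10 genes saturated throughout. With CA, 8 genes read higher in knockout on every Cy5 array and lower on every Cy3 array: Cyp2c44, Cyp2c70, Cyp2d9, Cyp2d10, Cyp2d26, Cyp3a11, Cyp3a41 and Cyp3a44. All 8 were saturated on at least 5 of the 6 arrays. On UDCA array 6, where red saturated too, 7 genes were saturated in both channels and read -0.57 or -0.58. For such genes the fitted ratio is an average of bounds from opposite sides, so the genes given array by array also have a reading from the red channel alone. That reading sets knockout RNA on arrays 1 to 3 against wild-type RNA on arrays 4 to 6. It avoids nearly all saturation, but compares different arrays and was added after seeing the data.

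**Figure D1:**
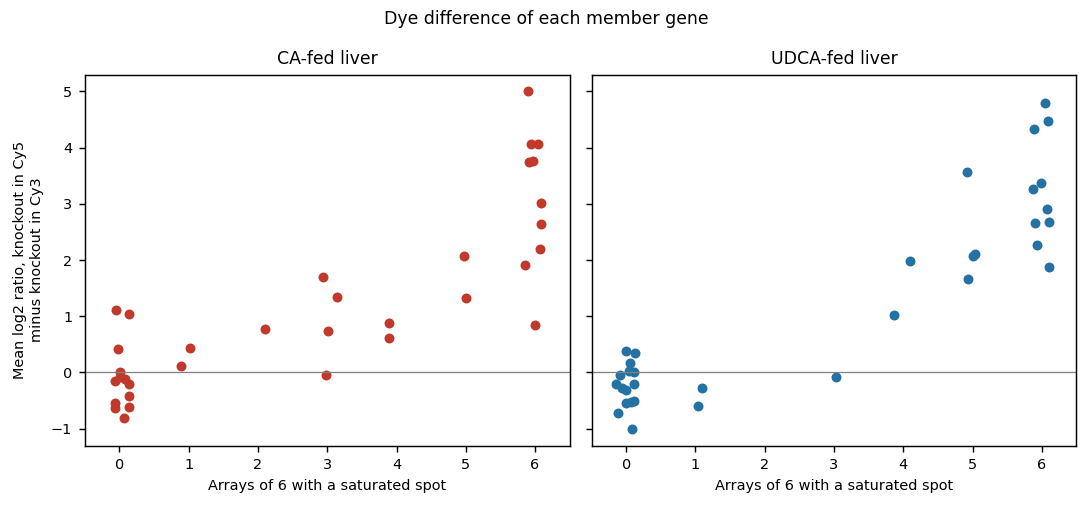
The difference between the mean log2 ratio on Cy5 arrays and on Cy3 arrays (vertical axis) is plotted for each tested gene against the number of arrays of that diet on which its probe was saturated (horizontal axis). Genes without saturated spots lie between -0.81 and 1.12 with CA, and those saturated on all 6 CA arrays lie between 0.84 and 5.

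A gene was called when its adjusted p was under 0.05 in the limma fit over all tested probes (Benjamini-Hochberg), read on its brightest tested probe. With CA, 19 of the 34 tested members were called lower than wild type and 3 higher, with a median log2 ratio of -0.58. Over all 15381 tested gene names, 22.4% were called lower and 37.8% higher, with a median of 0.1. With UDCA, 6 members were called lower and 7 higher (median -0.1), where 8.78% of all genes were called lower and 17.2% higher (median 0.04). In the difference between the diets, 16 members were lower with CA than with UDCA and 2 were higher (median -0.84), where 8.88% of all genes were lower and 18.8% higher (median 0.08). The share of members called lower thus stood above that of all genes in all 3 comparisons. Lower calls with CA covered 2 of 3 Cyp2a genes, 6 of 9 Cyp2c, 2 of 5 Cyp2d, 3 of 5 Cyp2j and 2 of 6 Cyp3a. Among the 13 genes with no saturated spot on any of the 12 arrays, 8 were lower with CA and 3 higher, with a median of -1.06. The 17 genes saturated on 6 or more arrays had 7 lower and 0 higher calls, with a median of -0.4. In the red channel alone, 17 members were lower and 2 higher with CA, against 7.28% and 9.11% of all probes. With UDCA the red channel gave 3 lower and 6 higher members, against 0.968% and 2.35% of all probes.

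**Figure D2:**
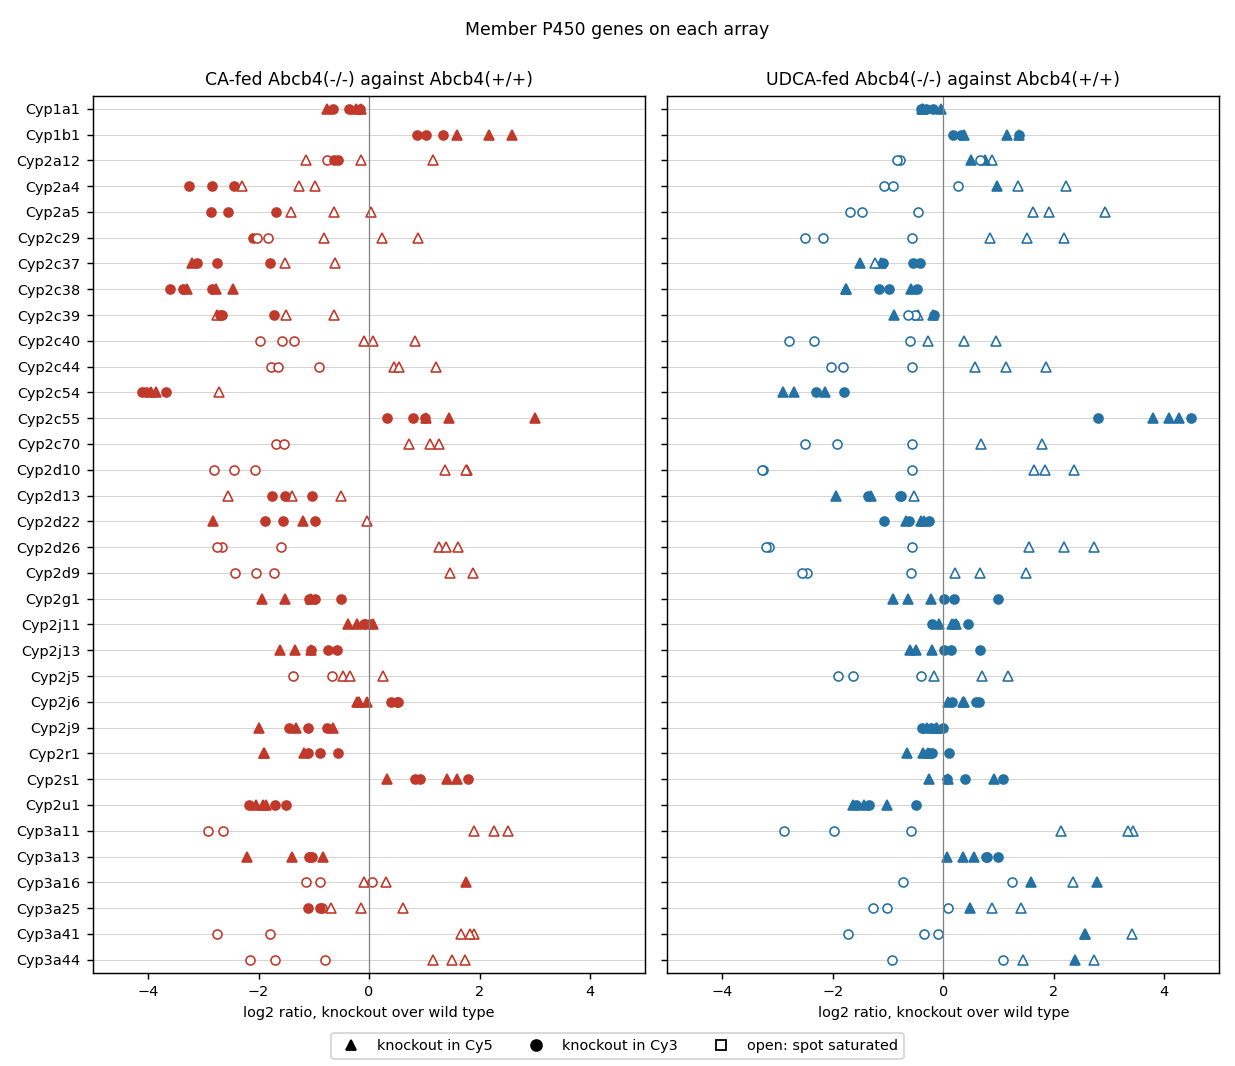
The log2 ratio of knockout over wild type (horizontal axis) is plotted for each of the 34 tested genes on the 6 CA arrays (left) and 6 UDCA arrays (right). Triangles have the knockout in Cy5, circles in Cy3, and open symbols are saturated spots. Cyp2c54 and Cyp2c38 are below 0 on every array with a value, Cyp2c55 is above 0 on every array with a value, and Cyp3a11 splits by dye.

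Family 2, subfamily c, held the widest range of the members. These enzymes oxidise drugs and steroids and turn arachidonic acid into epoxides and hydroxy acids. Cyp2c54 had the lowest ratio of all members. Its log2 ratio on the CA arrays was lowest at -4.12, had a median of -3.9 and was highest at -2.71, on array 2, the CA array with a saturated wild-type spot. On the 5 UDCA arrays with a value it ran from -2.9 through a median of -2.31 to -1.79, and UDCA array 6 was left out by an outlier mark of the scanner software. Every array with a value was below 0. The fit put Cyp2c54 at -3.72 ± 0.18 (SE) with CA, 13.2-fold lower than wild type (adjusted p = 1.29e-09), and at -2.37 ± 0.2 with UDCA, 5.18-fold lower (adjusted p = 1.07e-06). Its fall was larger with CA, with a difference of -1.35 ± 0.27 (adjusted p = 0.00237), while it was not called in the red channel (-0.88, adjusted p = 0.459) or with arrays centred on their median in place of loess (-1.88, adjusted p = 0.0808). In red light the knockout RNA read 7.76, 8.33 and 7.28 (log2 signal) on CA arrays 1 to 3 and the wild-type RNA 11.21, 11.21 and 11.39 on CA arrays 4 to 6.

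Cyp2c38, an enzyme that makes epoxides from arachidonic acid, had no saturated spot. Its CA arrays lay between -3.6 and -2.46 (median -3.07) and its UDCA arrays between -1.77 and -0.47 (median -1.08). The diets did not overlap on any array. The fitted fall was -3.06 ± 0.18 with CA, 8.33-fold (adjusted p = 4.12e-09), and -1.12 ± 0.18 with UDCA, 2.18-fold (adjusted p = 0.000364). The difference was -1.94 ± 0.26 (adjusted p = 0.000148). In the red channel Cyp2c38 was called with CA (-2.38, adjusted p = 0.000698), but neither with UDCA (-0.91, adjusted p = 0.219) nor in the difference (-1.47, adjusted p = 0.289). Median centring also lost the UDCA call (-0.71, adjusted p = 0.274). The dimmer Cyp2c38 probe, whose sequence stands above beside that of Cyp2c54, gave -2.06 with CA, -0.53 with UDCA and a difference of -1.53, again with no overlap of the diets.

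Cyp2c37 and Cyp2c39 fell with CA too. Cyp2c37 lay between -3.2 and -0.62 on CA arrays (median -2.28) and between -1.51 and -0.42 on UDCA arrays (median -1.11). Its fit gave -2.17 ± 0.27 (adjusted p = 7.14e-06) and -0.99 ± 0.27 (adjusted p = 0.0152). The UDCA call was lost without UDCA array 3 (-0.86, adjusted p = 0.0621), and the difference of -1.18 (adjusted p = 0.0342) was lost on leaving out any of 6 arrays (CA arrays 3, 5 and 6, UDCA arrays 1, 4 and 5; adjusted p from 0.056 to 0.0854). The red channel called Cyp2c37 with CA (-1.92, adjusted p = 0.00529) and not with UDCA (-1.06, adjusted p = 0.199) or in the difference (-0.86, adjusted p = 0.634). Median centring lost the same UDCA call and difference (adjusted p = 0.55 and 0.489). The scanner software's own ratio and the fit without a filter lost the difference (0.0676 and 0.0528), and slide as a random block the UDCA call (0.0504). The unsaturated second Cyp2c37 probe read -2.29 with CA and -1.58 with UDCA. Cyp2c39, another arachidonic acid epoxygenase, lay between -2.76 and -0.64 with CA (median -2.2) and between -0.89 and -0.16 with UDCA (median -0.48). It fell 4-fold with CA (-2 ± 0.22, adjusted p = 1.68e-06), was not called with UDCA (-0.47 ± 0.22, adjusted p = 0.138), and differed between the diets by -1.53 (adjusted p = 0.00237). In red, Cyp2c39 read -1.96 with CA (adjusted p = 0.00321), -0.48 with UDCA (adjusted p = 0.629) and -1.48 in the difference, which was not called (adjusted p = 0.317). Median centring lost that difference too (-1.67, adjusted p = 0.212).

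Cyp2c29 and Cyp2c40 were saturated on most arrays, and their ratios split by dye. Cyp2c29, a broad drug and epoxide-forming enzyme, lay between -2.1 and 0.88 with CA (median -1.33) and between -2.51 and 2.19 with UDCA (median 0.14). The fit called it lower with CA (-0.94 ± 0.26, adjusted p = 0.00605) and not with UDCA (-0.12 ± 0.26, adjusted p = 0.796). The Cyp2c29 call with CA was lost with the scanner software's ratio (-0.54, adjusted p = 0.184), with no dye term (adjusted p = 0.176) and with median centring (-1.09, adjusted p = 0.069). In the red channel Cyp2c29 read -1.93 with CA (adjusted p = 0.000597) and 0.05 with UDCA (adjusted p = 0.971). Knockout RNA there read 12.37, 13.14 and 11.82 on CA arrays, all below the wild-type values of 14.34, 14.44 and 14.34. Cyp2c40, a hydroxylase of arachidonic acid, lay between -1.98 and 0.83 with CA (median -0.73) and between -2.79 and 0.95 with UDCA (median -0.43). It was called lower with either diet (-0.68 ± 0.23, adjusted p = 0.0187, and -0.78 ± 0.23, adjusted p = 0.0217). The Cyp2c40 call with CA was lost without CA array 1, 3 or 6 (adjusted p from 0.0543 to 0.0677), and that with UDCA without UDCA array 3, 4 or 5 (0.0839 to 0.0963). Both Cyp2c40 calls were also lost with median centring (adjusted p = 0.13 and 0.392), the scanner software's ratio (0.418 and 0.0635) and no dye term (0.224 and 0.276), and the UDCA call with slide as a random block (0.0595). Its red-channel values were -1.4 (adjusted p = 0.00194) and -1.36 (adjusted p = 0.00735), and its less saturated second probe, the one printed above, gave -1.42 with CA and -1 with UDCA.

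Cyp2c70, the enzyme that makes the mouse-specific muricholic acids from chenodeoxycholic acid, was not called in any comparison. Its 5 CA values ran from -1.68 through 0.73 to 1.26 and its 5 UDCA values from -2.51 through -0.57 to 1.78. High values were those of Cy5 arrays and low values those of Cy3 arrays, without exception. The fitted ratios were -0.3 ± 0.23 with CA (adjusted p = 0.272) and -0.23 ± 0.23 with UDCA (adjusted p = 0.526), and the difference had a 95% interval from -0.77 to 0.62. In red, Cyp2c70 gave -0.55 with CA (adjusted p = 0.298) and -0.32 with UDCA (adjusted p = 0.741). Cyp2c44, named Cyp2c23 in current annotation, was also not called, at -0.35 with CA and -0.14 with UDCA.

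Cyp2c55 was the Cyp2c gene called higher. Its known products are hydroxylated fatty acids, and its gene responds to CAR and PXR activators. On CA arrays it lay between 0.32 and 3.01 (median 1.02) and on the 5 UDCA arrays with a value between 2.81 and 4.49 (median 4.08). Every value was above 0, and no spot was saturated. Cyp2c55 rose by 1.27 ± 0.24 with CA, 2.41-fold (adjusted p = 0.000428), and by 3.81 ± 0.27 with UDCA, 14-fold (adjusted p = 2.4e-07), the highest fitted ratio of any member. The rise with CA was smaller by -2.54 ± 0.36 (adjusted p = 0.000267). In red, knockout RNA read 10.64, 10.47 and 11.24 on UDCA arrays against 7.65, 8.08 and 7.45 for wild type, and the red-channel difference between the diets was -2.18 (adjusted p = 0.0338). Along chromosome 19 the array places Cyp2c55 first, then Cyp2c65, Cyp2c66, Cyp2c29, Cyp2c38, Cyp2c39, Cyp2c40, Cyp2c37, Cyp2c54 and Cyp2c70. Cyp2c65 and Cyp2c66, too dim to test, read between 0.29 and 1.25 and between 0.01 and 0.43 on the UDCA arrays, and on both sides of 0 on the CA arrays.

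Subfamily 2a holds steroid and coumarin hydroxylases. Cyp2a4, a steroid 15-alpha-hydroxylase, lay between -3.26 and -0.97 on CA arrays (median -2.38) and between -1.07 and 2.22 on UDCA arrays (median 0.62). Cyp2a5, the coumarin hydroxylase, lay between -2.87 and 0.04 with CA (median -1.55) and between -1.68 and 2.93 with UDCA (median 0.58). Both fell with CA. Cyp2a4 did so by -2.18 ± 0.21, 4.54-fold (adjusted p = 5.74e-07), and Cyp2a5 by -1.52 ± 0.26, 2.87-fold (adjusted p = 0.00016). Neither was called with UDCA, at 0.47 ± 0.21 for Cyp2a4 (adjusted p = 0.132) and 0.47 ± 0.26 for Cyp2a5 (adjusted p = 0.223). The diets differed by -2.65 ± 0.3 for Cyp2a4 (adjusted p = 5.23e-05) and -1.99 ± 0.37 for Cyp2a5 (adjusted p = 0.00144), which lost the call with no dye term (adjusted p = 0.0803). On the CA arrays wild-type RNA was saturated on 3 arrays for either gene, so those values are upper bounds. The red channel gave larger values. Cyp2a4 read -2.87 with CA (adjusted p = 2.64e-05) and 1.56 with UDCA (adjusted p = 0.00489), a difference of -4.43 (adjusted p = 0.000444). Cyp2a5 read -2.77 with CA (adjusted p = 7.35e-05) and 1.42 with UDCA (adjusted p = 0.0164), a difference of -4.18 (adjusted p = 0.00159). In that channel all 3 CA-fed knockout values of Cyp2a4 (10.64, 10.61 and 10.11) were below wild type (12.73, 13.64 and 13.58), and all 3 UDCA-fed ones (14.32, 14.48 and 14.22) were above it (13.05, 12.61 and 12.67). Cyp2a12, a bile acid and steroid hydroxylase, was not called (-0.35 with CA and 0.19 with UDCA).

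Readings of Cyp2a4 and Cyp2a5 cannot be taken as independent. In the array's mm7 annotation the brightest Cyp2a4 probe lies at chr7:23212199-23212258 and the brightest Cyp2a5 probe at chr7:23212221-23212279, with 35 of 38 aligned bases identical. The unbroken run of 28 bases they share is printed here because it carries the doubt over which gene is read.
Shared run: gtagacttgcagaggatatttcaaaggt
A dimmer Cyp2a4 probe, saturated on 7 arrays, had a longest shared run of 8 bases with the brightest Cyp2a5 probe. That dimmer probe read -1.79 for CA and 0.44 for UDCA (log2), a gap of -2.23. Which gene's RNA it reads was not tested. The 250 bases before the start of each gene are also nearly the same, and are printed because the readings of both genes moved together. Whether these bases have a part in that was not tested. In RefSeq's GRCm38.p6 the Cyp2a4 stretch is chr7:26306942-26307191 and the Cyp2a5 stretch chr7:26835089-26835338, both on the forward strand. Capitals in the Cyp2a5 line mark the 4 of 249 aligned bases that differ.
Cyp2a4: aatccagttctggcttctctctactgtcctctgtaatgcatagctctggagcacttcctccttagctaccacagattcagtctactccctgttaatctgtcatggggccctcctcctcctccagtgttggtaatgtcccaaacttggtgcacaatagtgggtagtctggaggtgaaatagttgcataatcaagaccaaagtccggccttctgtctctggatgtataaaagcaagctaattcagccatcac
Cyp2a5: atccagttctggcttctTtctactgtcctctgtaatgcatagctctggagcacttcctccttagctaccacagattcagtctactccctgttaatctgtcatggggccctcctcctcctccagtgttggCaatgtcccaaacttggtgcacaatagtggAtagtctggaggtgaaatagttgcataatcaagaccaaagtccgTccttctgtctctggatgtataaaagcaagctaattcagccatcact

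Subfamily 3a holds the main steroid and drug 6-beta-hydroxylases, which also hydroxylate bile acids. Cyp3a13 was the member of this subfamily without saturated spots. Its CA arrays lay between -2.21 and -0.84 (median -1.08) and its UDCA arrays between 0.07 and 1 (median 0.66). All CA values were below 0 and all UDCA values above it. Cyp3a13 fell with CA by -1.27 ± 0.14, 2.42-fold (adjusted p = 1.23e-06), and rose with UDCA by 0.59 ± 0.14, 1.51-fold (adjusted p = 0.00466). The difference of -1.87 ± 0.19 (adjusted p = 2.65e-05) was -2.03 in the red channel (adjusted p = 0.0396), where the rise with UDCA alone was 0.67 and not called (adjusted p = 0.192). With median centring Cyp3a13 had the same signs, but no call with CA (-0.96, adjusted p = 0.0889), with UDCA (0.98, adjusted p = 0.163) or in the difference (-1.94, adjusted p = 0.0769). On slide 4, with the same dye, CA array 6 read -1.09 and UDCA arrays 4 and 5 read 0.8 and 1.

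Cyp3a11, the main drug-oxidising Cyp3a enzyme of mouse liver and a standard PXR target, was beyond the range of the green channel. Its 5 CA values ran from -2.92 through 1.9 to 2.51 and its 6 UDCA values from -2.89 through 0.78 to 3.43, split by dye. It was not called with CA (-0.27 ± 0.26, adjusted p = 0.392), with UDCA (0.58 ± 0.23, adjusted p = 0.0898) or in the difference (-0.85 ± 0.35, adjusted p = 0.086). Leaving out UDCA array 1 or 4 brought the UDCA rise past the threshold (0.78, adjusted p = 0.0369, and 0.81, adjusted p = 0.0212). The same held for the difference (-1.07, adjusted p = 0.0402, and -1.05, adjusted p = 0.0306). The deposited series table called Cyp3a11 higher with UDCA (1.78, adjusted p = 0.000211) and lower in the difference (-1.46, adjusted p = 0.0146). The scanner software's ratio called neither (0.61, adjusted p = 0.0895, and -0.39, adjusted p = 0.49). In red, knockout values on UDCA arrays (15.12, 15.56 and 15.62) lay above wild type (14.75, 13.74 and 15), with a difference of 0.94 (adjusted p = 0.14), while CA gave -0.41 (adjusted p = 0.469). The red signal of Cyp3a11 was itself saturated on 3 arrays.

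Cyp3a16, Cyp3a41 and Cyp3a44 are close copies known as higher in female or young mouse liver. In the array's mm7 annotation the Cyp3a41 probe lies at chr5:144587472-144587531 and the tested Cyp3a44 probe at chr5:144587795-144587854. Their readings therefore cannot be taken as independent. Another Cyp3a44 probe lies between them and was too dim to test, with a mean log2 signal of 7.1 against 14.93. Which gene's RNA the tested probe reads was not tested. Cyp3a16 lay between -1.15 and 1.75 with CA (median -0.01) and, on 5 arrays, between -0.72 and 2.78 with UDCA (median 1.58). Cyp3a41, now Cyp3a41a, lay between -2.76 and 1.9 on 5 CA arrays (median 1.67) and between -1.73 and 3.41 with UDCA (median 1.24). Cyp3a44 lay between -2.16 and 1.73 with CA (median 0.18) and, on 5 arrays, between -0.92 and 2.73 with UDCA (median 1.45). All 3 rose with UDCA, Cyp3a16 by 1.29 ± 0.3 (adjusted p = 0.00621), Cyp3a41 by 1.07 ± 0.2 (adjusted p = 0.00112) and Cyp3a44 by 1.09 ± 0.27 (adjusted p = 0.00978). The Cyp3a44 call was lost without UDCA array 6 (0.65, adjusted p = 0.0585). None was called with CA, at 0, -0.21 and -0.05. Their differences between the diets were -1.29 (adjusted p = 0.031), -1.28 (adjusted p = 0.00577) and -1.13 (adjusted p = 0.0356), in that order. That of Cyp3a16 was lost without any of CA arrays 1, 3 and 4 and UDCA arrays 2, 3 and 5 (adjusted p from 0.0609 to 0.102). That of Cyp3a44 was lost without any of CA arrays 1, 4 and 6 and UDCA arrays 2, 3 and 6 (0.0629 to 0.0799). The Cyp3a41 call with UDCA was lost with no dye term (adjusted p = 0.364) and median centring (1.31, adjusted p = 0.108). Its difference was lost with no dye term (-0.9, adjusted p = 0.602), the scanner software's ratio (-0.7, adjusted p = 0.138) and median centring (adjusted p = 0.309). The Cyp3a44 call with UDCA was lost with no dye term (adjusted p = 0.144) and median centring (0.199), and the differences of Cyp3a16 and Cyp3a44 with no dye term (0.105 and 0.242), the scanner software's ratio (0.111 and 0.17), median centring (0.0973 and 0.372) and slide as a fixed term (0.669 and 0.857). None of the 3 differences was called in the red channel (-2.92, -2.45 and -2.57; adjusted p = 0.18, 0.168 and 0.108). Red-channel rises with UDCA were 2.74 (adjusted p = 0.0214), 2.35 (adjusted p = 0.00933) and 2.45 (adjusted p = 0.00735). They rest on wild-type signals that varied widely, as Cyp3a41 read 13.7, 11.82 and 13.35 in wild-type RNA on UDCA arrays 4 to 6. Cyp3a25 was called lower with CA (-0.51 ± 0.19, adjusted p = 0.0336) and not with UDCA (0.1 ± 0.19, adjusted p = 0.768), and its less saturated second probe read -1.35 and 0.33.

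Near the start of some of these genes the letters CAAAGTCCA occur, a core of sites that the hepatocyte factor HNF4A is known to bind. The windows of all members that hold it are printed so that the letters around it can be compared. Cyp3a13 and Cyp3a44, also described above, have promoters in the table without it. In 250 bases before to 50 after the start, on either strand, 129 of 27025 RefSeq promoters (0.477%) held it, and 6 of 30 member promoters found in the table. Capitals mark the motif, and positions are GRCm38.p6.
Cyp2c40, chr19:39812831-39812879: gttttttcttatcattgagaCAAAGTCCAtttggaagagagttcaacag
Cyp2c65, chr19:39060870-39060918: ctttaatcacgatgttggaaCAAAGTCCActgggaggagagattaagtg
Cyp2c70, chr19:40187322-40187370: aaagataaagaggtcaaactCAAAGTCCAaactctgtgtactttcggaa
Cyp3a11, chr5:145879935-145879983: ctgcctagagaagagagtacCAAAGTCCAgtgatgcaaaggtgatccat
Cyp3a16, chr5:145469794-145469842: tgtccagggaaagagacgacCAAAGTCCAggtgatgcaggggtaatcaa
Cyp3a41a, chr5:145720203-145720251: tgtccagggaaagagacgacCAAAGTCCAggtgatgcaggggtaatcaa
The windows of Cyp3a16 and Cyp3a41a are identical, and copies of a gene do not count as separate cases. Cyp2c65 lies on the forward strand and the others on the reverse strand, and each window reads along its gene. AGGTCA, a hexamer that many nuclear receptors bind, stood in 9 of 30 member promoters and 16% of all, AGTTCA in 3 of 30 and 14%, and GCGTG, the core of the AhR site, in 5 of 30 and 32.5%. These are matches of letters and show no binding.

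Subfamily 2d holds drug and steroid hydroxylases. Cyp2d13 lay between -2.56 and -0.5 on CA arrays (median -1.46) and between -1.95 and -0.53 on UDCA arrays (median -1.05). It fell with either diet, by -1.46 ± 0.22 (adjusted p = 3.66e-05) and -1.12 ± 0.22 (adjusted p = 0.00141), with no call for the difference (-0.35 ± 0.31, adjusted p = 0.432). In red, Cyp2d13 read -2.06 with CA (adjusted p = 0.00113) and -1.16 with UDCA, which was not called (adjusted p = 0.0798). Median centring lost the Cyp2d13 calls with CA (-1.38, adjusted p = 0.0609) and with UDCA (-0.8, adjusted p = 0.411). Cyp2d22 fell with CA (-1.41, adjusted p = 0.000153) and was not called with UDCA (-0.56, adjusted p = 0.112) or in the difference (-0.85, adjusted p = 0.0809). A dimmer probe of it was called in all 3, at -1.3 (adjusted p = 1.02e-06), -0.5 (adjusted p = 0.0137) and -0.8 (adjusted p = 0.00666). The dimmest Cyp2d22 probe read -0.35 with CA, and the red channel made no call with CA (-1.33, adjusted p = 0.0896). Cyp2d9, a male-biased steroid 16-alpha-hydroxylase, Cyp2d10 and Cyp2d26 were saturated and split by dye, at -0.26 to -0.46 with CA, and none was called. The less saturated Cyp2d10 probe read -1.12 with CA, and the red channel gave -0.78 for its brightest probe (adjusted p = 0.0278).

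Cyp2j genes encode epoxygenases of arachidonic acid, and most of them were unsaturated. Cyp2j9 lay between -1.99 and -0.65 with CA and between -0.38 and -0.01 with UDCA, with no overlap, and fell with CA 2.32-fold (-1.22 ± 0.14, adjusted p = 3.25e-06). Cyp2j13 fell with CA 2.09-fold (-1.06 ± 0.11, adjusted p = 1.25e-06), and Cyp2j5, which was saturated, 1.58-fold (-0.66, adjusted p = 0.0285). The other Cyp2j13 probes were well above background on 0 arrays in either RNA, with CA values from -0.16 to 0.28 and from -0.3 to 0.19. Cyp2j6 rose by 0.37 with UDCA (adjusted p = 0.0134). Cyp2j11 was not called, at -0.12 with CA and 0.13 with UDCA. The probes of Cyp2j13 and Cyp2j11 overlap when aligned, and they are shown because their readings differ although the overlap is nearly identical. Capitals mark the 2 of 30 aligned bases at which Cyp2j11 differs.
Cyp2j13, spanning chr4:95438221-95449204: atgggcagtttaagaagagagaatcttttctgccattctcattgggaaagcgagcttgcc
Cyp2j11, chr4:95690233-95690292: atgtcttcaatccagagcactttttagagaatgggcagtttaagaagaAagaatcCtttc
CA arrays of Cyp2j13 lay between -1.61 and -0.58, all below those of Cyp2j11, which lay between -0.39 and 0.08.

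The other single-gene subfamilies of family 2 moved both ways. Cyp2u1, a fatty acid hydroxylase, lay between -2.17 and -1.5 with CA (median -1.89) and between -1.63 and -0.5 with UDCA (median -1.39). It fell with both, by -1.86 ± 0.14, 3.64-fold (adjusted p = 2.43e-08), and -1.25 ± 0.14, 2.38-fold (adjusted p = 7.52e-06). Its difference of -0.61 (adjusted p = 0.028) was lost without CA array 4, UDCA array 3 or UDCA array 5 (adjusted p from 0.062 to 0.0697), and with slide as a fixed term (-0.37, adjusted p = 0.508). In red, Cyp2u1 read -1.62 with CA (adjusted p = 0.000419), -1.12 with UDCA (adjusted p = 0.0136) and -0.5 in the difference (adjusted p = 0.614). Median centring lost its UDCA call (-0.91, adjusted p = 0.119) and its difference (-0.71, adjusted p = 0.539). Cyp2r1, the vitamin D 25-hydroxylase, fell with CA 2.39-fold (-1.26 ± 0.12, adjusted p = 5.54e-07) and was not called with UDCA (-0.27). Cyp2g1, known from the nasal lining, fell with CA 2.27-fold (-1.18 ± 0.15, adjusted p = 7.36e-06) and read -0.09 with UDCA. The red channel made no call for Cyp2g1 with CA (-0.76, adjusted p = 0.0798). Another Cyp2g1 probe was well above background on 0 arrays in either RNA, with CA values from -0.42 to 0.26. Cyp2s1, an enzyme of epithelia, lay between 0.33 and 1.8 with CA (median 1.16) and between -0.25 and 1.09 with UDCA (median 0.24). It rose with CA 2.22-fold (1.15 ± 0.19, adjusted p = 0.000118), but in the red channel Cyp2s1 read 0.53, the groups overlapped and it was not called (adjusted p = 0.34). Its difference of 0.77 (adjusted p = 0.0496) was lost on leaving out any of 7 arrays (CA arrays 1, 3 and 5, UDCA arrays 1, 2, 4 and 5; adjusted p from 0.0872 to 0.123) and under most other settings.

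The family 1 members, Cyp1a1 and Cyp1b1, were dim in these livers, while the left-out Cyp1a2 was saturated on 3 CA arrays. Cyp1b1, known from mesenchymal and endothelial cells, lay between 0.86 and 2.59 with CA (median 1.47) and between 0.17 and 1.38 with UDCA (median 0.77). It rose with CA 3.03-fold (1.6 ± 0.18, adjusted p = 2.33e-06) and with UDCA (0.8 ± 0.18, adjusted p = 0.00424). On the CA arrays knockout RNA of Cyp1b1 was well above background on 6 of 6 and wild-type RNA on 4 of 6. On the UDCA arrays knockout RNA was so on 6 of 6 and wild-type RNA on 0 of 6. Cyp1b1 was thus bright enough to be tested only through knockout RNA, where it is high, so its calls are not independent of that choice. On each UDCA array wild type was then set to the higher of its own signal and the lowest signal well above background. The rise so read was 1.7-fold, close to the fitted 1.74-fold. It is no lower limit, as the 95% interval of the fit ran from 0.41 to 1.18 (log2). In red, Cyp1b1 read 1.2 with CA (adjusted p = 0.00191) and 0.61 with UDCA, which was not called (adjusted p = 0.16). The difference of 0.8 (adjusted p = 0.0306) was lost in red (0.59, adjusted p = 0.501), with the scanner software's ratio (0.22, adjusted p = 0.678), slide as a fixed term (0.44, adjusted p = 0.392), median centring (0.73, adjusted p = 0.363) and no dye term (adjusted p = 0.0864). It was also lost on leaving out any of 7 arrays (CA arrays 1, 2 and 4, UDCA arrays 2 to 5; adjusted p from 0.0549 to 0.0751). Cyp1a1, the classic AhR target, lay between -0.77 and -0.14 with CA (median -0.29) and between -0.4 and -0.04 with UDCA (median -0.34). It was called lower with CA (-0.39 ± 0.1, adjusted p = 0.00503) and not with UDCA (-0.28 ± 0.1, adjusted p = 0.0632) or in the difference (-0.1, adjusted p = 0.641). The Cyp1a1 fall with UDCA was called with the scanner software's ratio (-1.26, adjusted p = 0.00388) and with no background correction (-0.34, adjusted p = 0.0189). It was also called without CA array 1 (-0.28, adjusted p = 0.0329), but not with median centring (-0.27, adjusted p = 0.582). CA-fed knockout RNA of Cyp1a1 was well above background on 0 of 6 arrays and wild-type RNA on 4 of 6. On the UDCA arrays these counts were 5 and 4, so Cyp1a1 was bright enough to be tested only through UDCA-fed knockout RNA. Read in the same way as Cyp1b1, the Cyp1a1 fall with CA was 1.31-fold. That is the same as the fitted fall, whose 95% interval ran from -0.61 to -0.16 (log2). The red channel made no call (-0.37, adjusted p = 0.321).

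**Figure D3:**
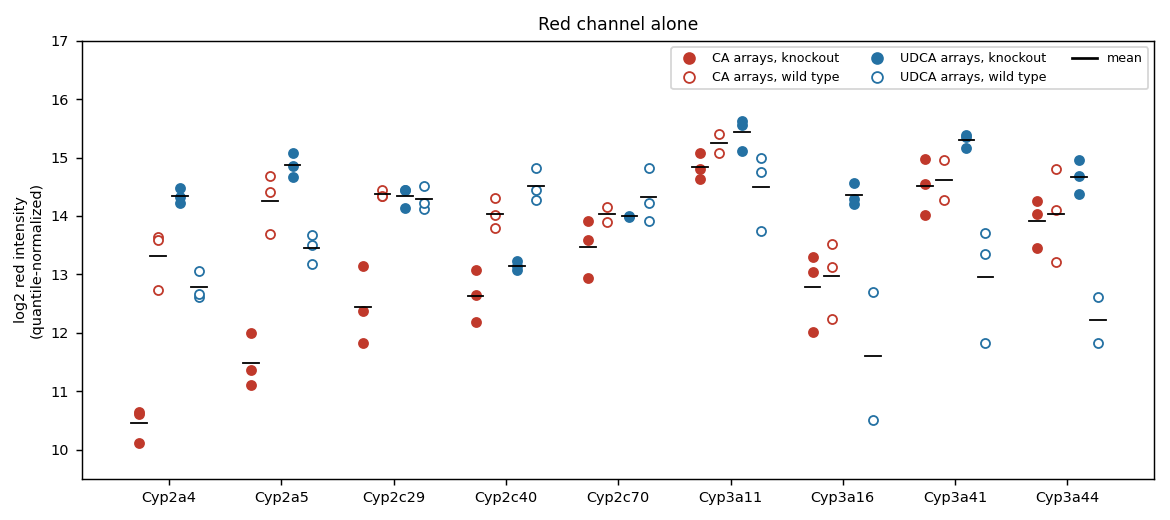
Red-channel log2 signals (vertical axis) of 9 genes with saturated green spots are plotted array by array, with knockout RNA of arrays 1 to 3 filled, wild-type RNA of arrays 4 to 6 open and the mean as a bar. For Cyp2a4, the CA-fed knockout (10.11 to 10.64) is below and the UDCA-fed knockout (14.22 to 14.48) above the wild type of its own diet's arrays; levels of different probes are not compared.

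CA and UDCA are both bile acids. UDCA lacks a hydroxyl group that CA carries and has another in the opposite orientation. Whether the doses matched is not known, and each diet was read against wild type on its own arrays, so the comparison is indirect. One pair of compounds was compared over 34 genes, with p-values adjusted over all tested probes. Of the 16 genes lower with CA than with UDCA, 2 were Cyp2a, 5 Cyp2c, 2 Cyp2j and 4 Cyp3a genes. Cyp2a4, Cyp2c55, Cyp2a5, Cyp2c38 and Cyp3a13 had the largest differences. Cyp2g1, Cyp2j9, Cyp2j13 and Cyp2r1 differed by -0.98 to -1.09. On slide 4, which held both diets in the same dye, CA array 6 differed from the mean of UDCA arrays 4 and 5 in the called direction for 16 of 16 lower and 2 of 2 higher genes. These arrays were part of the fit that made the calls, so this gives the within-slide signs and is no separate check. Slide 3 paired CA in Cy3 with UDCA in Cy5, so diet and dye cannot be told apart there, and it gave the called direction for 15 of 15 lower and 1 of 2 higher genes. The red channel alone called 4 members lower, Cyp2a4, Cyp2a5, Cyp2c55 and Cyp3a13, and 0 higher, against 36 lower and 10 higher of all probes. For the 16 members not called in the difference, the 95% interval reached beyond 1 log2 unit in 7. The interval was -0.42 to 0.21 for Cyp1a1, -0.55 to 0.06 for Cyp2j11 and -0.51 to 0.09 for Cyp2j6. For Cyp2c40, saturated on all 12 arrays, it was -0.59 to 0.79.

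**Figure D4:**
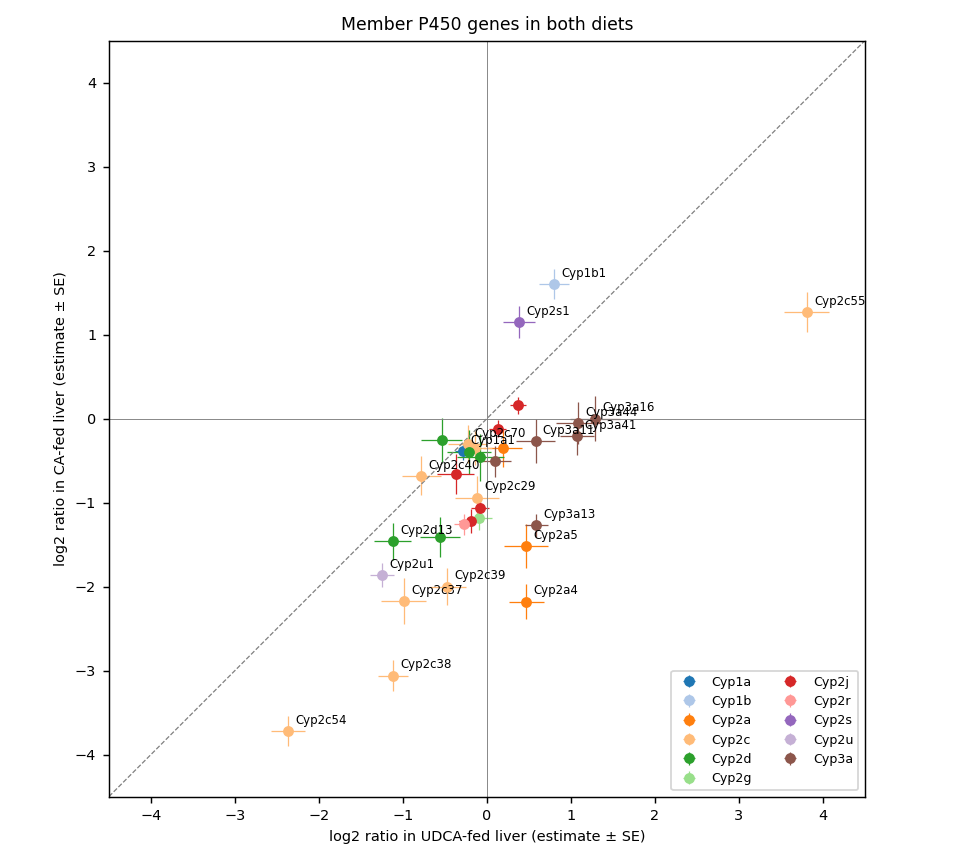
Each tested gene is placed by its fitted log2 ratio with UDCA (horizontal axis) and with CA (vertical axis), with standard errors as bars and the subfamily as colour. Most genes lie below the line of equal ratios, Cyp2c55 lies far out at 3.81 with UDCA and 1.27 with CA, and Cyp2c54 at -2.37 and -3.72.

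The receptors that act on these genes were counted with their partners. Of 19 tested genes, 2 were higher and 6 lower with CA, where 37.8% and 22.4% of all genes were. With UDCA, 3 were higher and 4 lower, where 17.2% and 8.78% of all genes were, so the higher share was near that of all genes. Nr1i3, the gene of CAR, fell by -1.97 with CA and -1.12 with UDCA. Nr1i2, the gene of PXR, read 0.06 with CA and rose by 0.47 with UDCA (adjusted p = 0.0133). Ahr, the gene of the aryl hydrocarbon receptor, rose by 0.7 and 0.54. Of 3 tested AhR targets outside the P450 family, 2 were lower with CA, and with UDCA Nqo1 rose by 1.3 and Tiparp fell by 0.47. Members grouped by known inducer or use gave these counts. Among 7 tested CAR and PXR inducible members, 1 was higher and 5 lower with CA (median -1.27), and 2 higher and 2 lower with UDCA (median 0.47). Among 7 epoxygenases, 5 were lower with CA and 1 lower and 1 higher with UDCA. The 5 tested members known mainly outside the liver gave 2 higher and 3 lower with CA.

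Genes that serve all P450 enzymes supply electrons and heme. Of 6 electron donor genes, 2 were lower with CA, Cyb5b at -1.13 and Pgrmc2 at -0.6, and 0 with UDCA. Por, the P450 reductase, was saturated and not called with CA (-0.3). Of 12 heme genes, 4 were lower with CA, among them Fech, which inserts the iron, at -1.14, and with UDCA 2 were higher and 1 lower. Set against 22.4% of all genes lower with CA and 17.2% higher and 8.78% lower with UDCA, these small counts lie near those shares. In the other direction, 0 genes of either list were higher with CA, where 37.8% of all genes were. The 6 tested P450 genes left out of the members had 5 lower calls with CA, and 3 higher and 2 lower with UDCA.

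Markers of other liver cells moved with the diets as well. The counts below stand beside 37.8% of all genes higher and 22.4% lower with CA, and 17.2% and 8.78% with UDCA. All 8 cholangiocyte markers were higher with CA, with per-array medians from 1.72 to 3.93, and 5 of 8 with UDCA, with medians from 0.47 to 2.39. All 6 mesenchymal markers were higher with either diet, and of 8 macrophage markers 5 were higher and 2 lower with CA and 6 higher and 0 lower with UDCA. Of 9 tested hepatocyte markers, Hnf4a and Ttr were lower with either diet, Hnf4a by -0.61 with CA and -0.74 with UDCA and Ttr by -0.44 and -0.67. Hnf4a was saturated on 1 CA array and 0 UDCA arrays, and Ttr on 3 and 2. The other 7 were saturated on all 6 CA arrays and not called, and the per-array medians of the list split by dye, from -2.03 to 2.02 with CA. For intestine, 3 of 8 listed markers were tested, with 1 higher (Vil1) and 2 lower with CA. For pancreas, 2 of 6 were tested and both were lower with CA, with medians from -3.45 to -0.75. The part of cell mix in the ratios above was not tested. Of 8 listed genes known as higher in female liver, 5 were tested, with 3 higher and 1 lower with UDCA, and 0 higher and 2 lower with CA. The 3 higher were Cyp3a16, Cyp3a41 and Cyp3a44, close copies with saturated spots that do not count as separate cases. In both RNAs of all 12 arrays, all 4 Xist probes were not well above background, while Eif2s3y, Jarid1d and 1 Ddx3y probe were.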

How the data were processed

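Liver RNA was measured on 12 Agilent 2-colour arrays. Per the file headers, Feature Extraction 9.5.3.1 reported, for either channel, a spot's mean intensity and its median background intensity, with saturation and outlier marks, beside its own processed log10 ratio (red over green). A deposited series table holds log2 ratios per probe, made by a normalization that no source used here names. Its CA columns ran opposite to knockout over wild type (absolute correlation with the scanner values from 0.931 to 0.981) and were turned. Probe positions are those of the array design, in mm7.

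Here intensities were corrected with normexp (offset 50), put through loess within each array with control spots at weight 0, and turned to log2 knockout over wild type (R 4.3.3, limma 3.58.1, data.table version 1.17.8). Values with outlier marks were left out (2439 of 260424) and saturated spots kept. A probe was tested if well above background on at least 5 of 6 arrays in either RNA of either diet (21697 probes with enough values). One limma fit held both diets and a dye term per probe, with 9 residual degrees of freedom, and p-values were adjusted over all tested probes. The fit was tested on simulated data. Red-channel signals were compared after normexp and quantile normalization between arrays. Lists were counted and not tested.

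Values on every array were taken for the 6 largest called rises and falls of each comparison and for Cyp1a1, Cyp2a5, Cyp2c29, Cyp2c55, Cyp2c70, Cyp3a11 and Cyp3a13; other members are named with their values by subfamily. The members and lists were chosen with earlier results of these data known. RefSeq promoters were matched by symbol for 30 of 36 members. Alternatives were the background correction, normalization, ratio source, filter, saturated spots, dye term, slide, replicate number, probe choice and leaving out arrays. The red channel alone, the least saturated probe, averaged dye-swap pairs, and saturated spots left out without a dye term were added after seeing the data.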

Additional observations from a re-analysis of the deposited data

Results flagged for a closer look

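On the 6 CA arrays, Cyp2c54 had 1 array apart from the others, array 2, at -2.71 (log2 knockout over wild type). Its gap to the nearest array, as a share of the group's whole range, was above Dixon's 95% critical value for 6 samples. That array was also the CA array on which the gene's wild-type spot was saturated. Chance alone marks about 1 in 20 groups in this way.

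The test of the difference between the diets was past its threshold for 14 of the genes given array by array. CA minus UDCA was -2.65 for Cyp2a4, -2.54 for Cyp2c55, -1.99 for Cyp2a5, -1.94 for Cyp2c38 and -1.87 for Cyp3a13. It was -1.53 for Cyp2c39, -1.35 for Cyp2c54, -1.29 for Cyp3a16, -1.28 for Cyp3a41, -1.18 for Cyp2c37, -1.13 for Cyp3a44 and -0.61 for Cyp2u1. It was above 0 for Cyp1b1 (0.8) and Cyp2s1 (0.77). Cyp3a13 was the gene whose arrays lay on opposite sides of 0 with the 2 diets.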

How the results depend on the processing

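Counts of called members are given as alternative against reported value. With arrays centred on the median in place of loess, 11 against 19 members were lower with CA, 1 against 6 lower and 3 against 7 higher with UDCA, and 5 against 16 lower and 0 against 2 higher in the difference. That centring moved the median of all probes to 0.23 with CA and 0.29 with UDCA, and gave 4939 higher and 1203 lower probes with CA. The deposited series table gave 12 members higher with UDCA, and 25 lower and 1 higher in the difference. With saturated spots left out, 22 members could be fitted, and 4 were higher with UDCA. The red channel alone gave 3 lower with UDCA, and 4 lower and 0 higher in the difference. The 2 higher calls of the difference became 1 with no background correction, no filter, slide as a random block, the median over probes, or saturated spots left out without a dye term. They became 0 with the scanner software's ratio, no dye term, slide as a fixed term, and at the lowest over averaged dye-swap pairs, which gave 12 to 17 lower in the difference. Leaving out single arrays gave 16 to 20 lower and 3 to 3 higher with CA, 4 to 8 lower and 6 to 8 higher with UDCA, and 13 to 17 lower and 0 to 3 higher in the difference. Cyp3a16 with CA went from 0 to 1.75 (adjusted p = 0.00853) with saturated spots left out and no dye term. The cause of these shifts was not tested. With the replicate number as a block, 19 members were lower with CA, and 15 lower and 1 higher in the difference; residuals of arrays with the same number correlated between -0.567 and 0.134, so the numbers pair no samples. Of the values of single genes over all alternatives, 1338 kept direction and side of the threshold, 121 lost a call and 18 gained one. The scanner's range limits the ratios of the 17 genes saturated on 6 or more arrays, and background those of Cyp1a1 and Cyp1b1.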
